A study of Mus musculus with 4 samples.

Results

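Osr2, Cdx1, Cdx2, Hnf4a, Gata6 and Klf5 encode transcription factors known from the development and upkeep of the gut, and their transcripts are described here in the epithelial and stromal cells of a pair of mouse intestinal single-cell libraries. The 6 genes were taken by symbol from the 55450 genes of the count files. They had been picked with their levels in these libraries in view, so the levels are given as a description, without a test. The series holds 4 libraries of wild-type mouse cells made with droplet-based 3′ sequencing: intestinal cells of untreated mice, intestinal cells of mice given NPs for 1 week, brain cells of untreated mice, and brain cells of mice given NPs for 2 months. The labels leave NPs without an explanation, give neither a dose nor the number of animals, and name BALB/c mice aged 5 weeks and ICR mice aged 6 months without tying either to a tissue or a group. One label speaks of mouse or rat tissue, the series text of colon and the sample labels of intestine. Each group is 1 library, so no difference could be set against the spread between animals, and NPs treatment, strain, age, animal, dissection and position along the gut cannot be told apart in any difference between the libraries. All intervals below are 95% intervals and cover counting error only.

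The gut epithelium renews itself from crypts, where stem and dividing cells give rise to absorptive, goblet and enteroendocrine cells, and its regional character is set by combinations of transcription factors. CDX1 and CDX2 are caudal-related homeobox factors that give the epithelium its intestinal identity, and Cdx2 is known to be graded along the adult gut, with high levels around the cecum and lower levels towards the rectum. HNF4A is a nuclear receptor that drives genes of lipid handling and of the brush border in absorptive cells, GATA6 is a zinc-finger factor of endoderm and mesoderm, KLF5 is a Krüppel-like factor abundant in dividing crypt cells, and OSR2 is a zinc-finger factor of the odd-skipped family best known from the forming palate and limb.

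The untreated intestinal library held 116394801 UMIs (counted RNA molecules) in 20368 barcodes and the NPs library 127772838 UMIs in 19918 barcodes, of which 16856 and 10556 were kept as cells. Barcodes with more than 20% mitochondrial UMIs were left out, and these made up 16.7% of the untreated and 46.5% of the NPs library. The kept cells formed 30 clusters, and classes were named from marker genes only. Epithelial cells numbered 7908 and 9104, with a median of 3147.5 and 7689.5 UMIs and of 4.08% and 7.11% mitochondrial UMIs, and stromal cells numbered 119 and 665. The libraries shared 104 barcode sequences, 49 of them among kept cells. In every epithelial cluster but enteroendocrine cluster 22, one of the libraries gave at most 23 cells. In the epithelium the small intestinal genes Lct and Apoa4 had 0 UMIs in both libraries, and the small intestinal factor Gata4 had 7 and 4. Hoxb13, a homeobox gene of the distal colon, was at 375 CPM (a gene's UMIs scaled to the total UMIs of the class) in the untreated and 18.0 CPM in the NPs epithelium.

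The RefSeq promoter table at hand held 2 of the 6 genes, Cdx2 and Hnf4a. Their windows from 250 to 41 bases before the RefSeq start are shown because each holds a match to the motif of a family present among the 6 genes, KLF for Klf5 and GATA for Gata6. Both are printed 5′ to 3′ on the strand of the gene, with the match in capitals. The Cdx2 window is chr5:147307290-147307499 on the minus strand and the Hnf4a window chr2:163506607-163506816 on the plus strand (GRCm38.p6), of which 9 bases lie in an annotated exon.
Cdx2: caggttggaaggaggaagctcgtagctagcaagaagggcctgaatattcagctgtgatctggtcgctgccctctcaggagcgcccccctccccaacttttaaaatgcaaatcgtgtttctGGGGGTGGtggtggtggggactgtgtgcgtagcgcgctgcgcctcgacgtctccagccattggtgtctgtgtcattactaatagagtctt
Hnf4a: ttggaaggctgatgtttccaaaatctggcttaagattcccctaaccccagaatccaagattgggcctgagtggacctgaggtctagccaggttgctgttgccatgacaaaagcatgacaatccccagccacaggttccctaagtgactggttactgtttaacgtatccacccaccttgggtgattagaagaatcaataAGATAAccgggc
Motifs of the 5 families were searched on both strands, and their shares were counted over 32851 promoter windows of the same length. For KLF factors the letters GGGNGTGG were used, which 12.9% of all windows held. The Cdx2 window held 1 such match, GGGGGTGG, starting 130 bases before the RefSeq start. For GATA factors AGATAA was used, which 8.77% of all windows held. The Hnf4a window held 1 match to it, starting 52 bases before the RefSeq start (163506857). The annotated gene begins earlier, at 163506808, and the match reaches into its exon bases. Neither window held the CDX motif TTTAT, which 32.6% of all windows held. Its reverse complement can share letters with the GATA motif. The HNF4 motif CAAAGTCCA was found in 0.307% of all windows and in neither of these. The same held for the motif of odd-skipped factors, GCTACNG, found in 6.99% of all windows. The window was set to 210 bases after a match across the edge of a shorter window had been seen. A match describes these letters and shows no binding.

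In the epithelium as a whole, Osr2 and Cdx2 transcripts were far more abundant in the NPs library than in the untreated one, while Cdx1, Hnf4a, Gata6 and Klf5 lay within 2-fold. A gene was called higher or lower at a 2-fold ratio with at least 20 UMIs in the higher library. By that rule 2 of the 6 genes were higher and 0 lower, against 19.4% of 17474 genes that were higher and 8.76% that were lower. The members were chosen from this contrast, so nothing is read from that count. The median log2 ratio of all genes was 0.33, so ratios are also given relative to it: with the median set to 0, the log2 ratio was 10.32 for Osr2, 1.85 for Cdx2, 0.04 for Gata6, -0.04 for Cdx1, -0.05 for Klf5 and -0.69 for Hnf4a. The genes called went from 3397 higher and 1530 lower to 2257 higher and 2026 lower with that shift removed. Cdx1 and Klf5 thereby changed sign and remained close to the median gene.

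**Figure D1:**
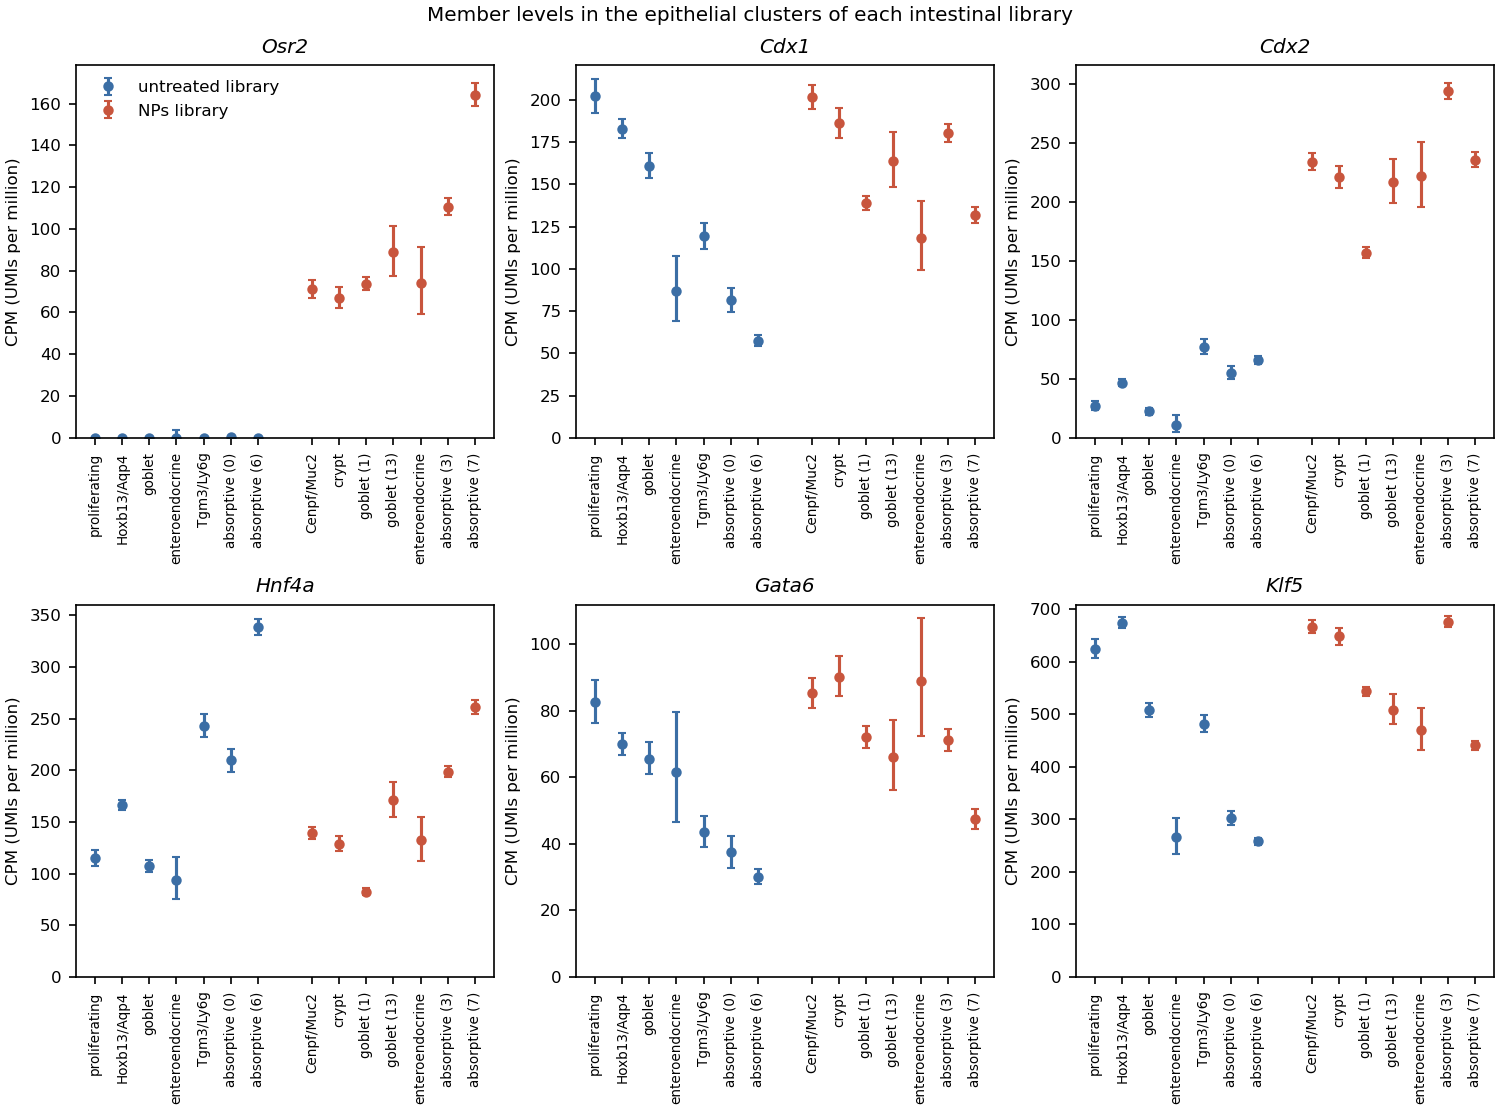
Level of each gene in CPM (linear axis from 0) in the epithelial clusters with at least 50 cells, for the untreated library (blue) and the NPs library (red), 1 library each. Points are summed UMIs of a cluster and bars are 95% counting intervals. Osr2 lies at the bottom of the axis in all 7 untreated clusters and between 67.1 and 164 CPM in the 7 NPs clusters. Cdx2 lies between 10.6 and 77.3 CPM and between 157 and 295 CPM, and the other 4 genes overlap between the libraries.

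Osr2 (ENSMUSG00000022330, GRCm38 chromosome 15, 35296098 to 35303305, plus strand) was almost missing from the untreated epithelium and found in every epithelial cluster of the NPs library. It had 5 UMIs in 7908 untreated epithelial cells (0.0625 CPM, 0.0203 to 0.146) and 10373 UMIs in 9104 NPs epithelial cells (100.4 CPM, 98.5 to 102), a ratio of 1606 (688 to 4948). The 5 untreated UMIs lay in 5 cells, and no NPs cell held more than 24. A UMI was found in 0.0632% of untreated and 41.5% of NPs epithelial cells, and in 0.0147% and 9.25% after thinning each cell to 1000 UMIs. T cell-like cells, which are not known to make OSR2 and were of similar depth to the untreated epithelium (medians of 3194 and 2748 UMIs), had a UMI in 0.109% and 4.91% of cells, or 1.46% of the thinned NPs cells. The untreated epithelial share thus did not exceed that of T cells, whereas the NPs epithelial share lay far above it.

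Within the NPs epithelium Osr2 was highest in the absorptive clusters. Cluster 7, absorptive and the richest in absorptive markers, had 164 CPM (159 to 170), and cluster 3, also absorptive, had 111 CPM (107 to 115). The remaining 5 clusters lay between 67.1 and 88.9 CPM, with crypt-like cluster 4 the lowest at 67.1 CPM (62.0 to 72.4). Neighbours in the order of these 5 did not differ beyond counting error, while goblet cluster 13, the highest of them at 88.9 CPM (77.5 to 101.5), did not overlap cluster 4. Absorptive markers summed to 13746 CPM in cluster 13, against 14390 in cluster 3 and 2645 in goblet cluster 1, and their part in its Osr2 level was not tested. Cluster 7 was 1.49-fold above cluster 3 (1.41 to 1.56), and cluster 3 was 1.25-fold above cluster 13 (1.08 to 1.44). Cluster 7 was 2.45-fold above cluster 4 (2.25 to 2.67) and 2.22-fold above goblet cluster 1 (2.11 to 2.35). Across all 20368 barcodes of the untreated library Osr2 had 20 UMIs, of which 10 lay in 119 fibroblast-like cells, 5 in epithelial and 5 in immune cells.

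Cdx2 (ENSMUSG00000029646, chromosome 5, 147300805 to 147307270, minus strand) was present in both epithelia and more abundant in the NPs library. It had 4007 UMIs in the untreated epithelium (50.1 CPM, 48.5 to 51.7) and 23430 in the NPs epithelium (227 CPM, 224 to 230), a ratio of 4.53 (4.38 to 4.68). Every NPs cluster lay above every untreated cluster. A UMI was found in 23.5% and 66.2% of epithelial cells and in 1.02% and 11.6% of T cell-like cells. After thinning these shares were 3.96% and 18.6% against 0.231% and 3.41%. The ratio of Cdx2 exceeded that of 94.4% of the 17474 genes.

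The order of Cdx2 over the clusters also differed between the libraries. In the untreated library cluster 20 was highest at 77.3 CPM (71.2 to 83.7), an unnamed epithelial cluster led by Wfdc2, Ly6g and Tgm3. Absorptive clusters 6 and 0 followed at 66.0 and 55.3 CPM, then cluster 9, unnamed and led by Wfdc2 and Hoxb13, at 46.7, proliferating-like cluster 23 at 27.1, goblet cluster 8 at 22.4 and enteroendocrine cluster 22 at 10.6 CPM, where 10 UMIs were counted. Clusters 23 and 8 were the only neighbours in this order whose ratio had an interval reaching down to 1 (1.21-fold, 1.00 to 1.46), and the highest was 7.29-fold above the lowest (3.94 to 15.3). In the NPs library absorptive cluster 3 was highest at 295 CPM (288 to 301) and goblet cluster 1 lowest at 157 CPM (152 to 162), a 1.88-fold range (1.81 to 1.95). Neighbours among the 5 clusters between them, at 217 to 236 CPM, did not differ beyond counting error. The untreated library thus spanned a wider range of Cdx2 between its absorptive and secretory clusters than the NPs library, a difference that was not tested.

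Cdx1 (ENSMUSG00000024619, on chromosome 18) differed little between the whole epithelia. It had 10601 UMIs in the untreated library (132.5 CPM, 130.0 to 135.0) and 16753 in the NPs library (162 CPM, 160 to 165), a ratio of 1.22 (1.19 to 1.25). In both libraries it was highest in a cluster rich in proliferation markers. In the untreated library proliferating-like cluster 23 was highest at 202 CPM (192 to 212), cluster 9 had 183 and goblet cluster 8 had 161, while absorptive clusters 0 and 6 had 81.3 and 57.5 CPM. Cluster 23 was 3.51-fold above cluster 6 (3.26 to 3.79), and of the neighbours in the order only enteroendocrine cluster 22 (86.9 CPM) and cluster 0 did not differ beyond counting error. In the NPs library cluster 11, unnamed and with Cenpf, histone genes and Muc2 among its leading genes, was highest at 202 CPM (195 to 209) and enteroendocrine cluster 22 lowest at 118 CPM (99.4 to 140.1), a 1.70-fold range. There absorptive clusters 3 and 7 had 180 and 132 CPM, and goblet clusters 13 and 1 had 164 and 139 CPM. Of the neighbours in this order, cluster 11 differed beyond counting error from crypt-like cluster 4 (1.08-fold, 1.02 to 1.15), cluster 13 from cluster 1 (1.18-fold, 1.06 to 1.31) and cluster 1 from cluster 7 (1.05-fold, 1.00 to 1.11). In the untreated library Cdx1 and Cdx2 thus ran in nearly opposite orders over absorptive and dividing cells: cluster 6 was 2.44-fold above cluster 23 for Cdx2 (2.11 to 2.83).

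Hnf4a (ENSMUSG00000017950, chromosome 2, 163506808 to 163572910, plus strand) was highest in absorptive cells of both libraries and somewhat lower in the NPs epithelium. It had 16792 UMIs in the untreated epithelium (210 CPM, 207 to 213) and 16870 in the NPs epithelium (163 CPM, 161 to 166), which is 1.29-fold lower (1.26 to 1.31). The antisense gene Hnf4aos overlaps it and had 4 and 7 UMIs in the epithelium. Untreated cluster 6, the deeper absorptive cluster, had 339 CPM (331 to 347), cluster 20 had 243 and absorptive cluster 0 had 210, against 107 CPM in goblet cluster 8 and 94.3 in enteroendocrine cluster 22. In the NPs library absorptive cluster 7 had 261 CPM (255 to 268), cluster 3 had 199, and goblet cluster 1 was lowest at 82.6 (79.2 to 86.0). Highest and lowest clusters lay 3.60-fold apart in the untreated library (2.92 to 4.48) and 3.17-fold in the NPs library (3.01 to 3.33). Neighbours did not differ beyond counting error among proliferating-like cluster 23, goblet cluster 8 and enteroendocrine cluster 22 in the untreated library, nor among clusters 11, 22 and 4 in the NPs library.

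Gata6 (ENSMUSG00000005836, on chromosome 18) and Klf5 (ENSMUSG00000005148, chromosome 14, 99298691 to 99315036, plus strand) were lowest in the cluster richest in absorptive markers in either library. Gata6 had 4357 and 7287 UMIs in the epithelium (54.5 CPM, 52.9 to 56.1, and 70.5 CPM, 68.9 to 72.2), a ratio of 1.29 (1.25 to 1.34). In the untreated library it was highest in proliferating-like cluster 23 at 82.5 CPM (76.2 to 89.2) and lowest in absorptive cluster 6 at 30.1 CPM (27.8 to 32.5), a 2.74-fold range (2.46 to 3.07). In the NPs library it was highest in crypt-like cluster 4 at 90.1 CPM (84.3 to 96.3) and lowest in absorptive cluster 7 at 47.4 CPM (44.5 to 50.4), a 1.90-fold range (1.73 to 2.08). Of the neighbours in the NPs order, clusters 11 (85.3 CPM) and 1 (72.0 CPM) differed beyond counting error (1.18-fold, 1.11 to 1.27), as did clusters 13 and 7 (1.39-fold, 1.17 to 1.65), and the other 4 pairs did not. In the untreated order this held for clusters 23 and 9, 22 and 20, and 0 and 6.

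Klf5 had 38358 and 60134 UMIs in the epithelium (479 CPM, 475 to 484, and 582 CPM, 577 to 587), a ratio of 1.21 (1.20 to 1.23). Untreated clusters 9 and 23 were highest at 674 (664 to 684) and 625 CPM (607 to 643), and absorptive cluster 6 was lowest at 258 CPM (251 to 265), a 2.61-fold range (2.53 to 2.69). In the NPs library absorptive cluster 3 (676 CPM, 666 to 686), cluster 11 (667 CPM) and crypt-like cluster 4 (648 CPM) were highest, with no difference beyond counting error between neighbours among them, while absorptive cluster 7 was lowest at 441 CPM (432 to 450), a 1.53-fold range (1.49 to 1.57). Enteroendocrine cluster 22 did not differ from the lowest cluster beyond counting error in either library. It had 267 CPM in the untreated library (1.03-fold above, 0.91 to 1.17) and 470 CPM in the NPs library (1.07-fold above, 0.98 to 1.16). Klf5 was thus highest in an unnamed and a proliferating-like cluster of the untreated library, and in an absorptive, an unnamed and a crypt-like cluster of the NPs library. A Klf5 UMI was found in 61.6% and 83.2% of epithelial cells, against 4.22% and 12.9% of T cell-like cells. After thinning these shares were 29.8% and 40.3% against 1.35% and 4.39%. For Cdx1, Hnf4a and Gata6 the thinned epithelial shares were 9.80% and 14.2%, 18.0% and 14.6%, and 4.00% and 6.73%.

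Compared within classes, Osr2 and Cdx2 were higher in the NPs library in absorptive, goblet and enteroendocrine cells alike, while the others differed by class. In absorptive epithelial-like cells, which came from clusters 0 and 6 in the untreated and 3 and 7 in the NPs library, 4 of the 6 genes were called higher and 0 lower, against 31.8% of 14519 genes higher and 10.7% lower. Osr2 had 1 and 6225 UMIs there, a ratio of 3822 with a wide interval from 686 upwards. Cdx2 was at 63.8 and 268 CPM (4.20-fold, 4.00 to 4.41), Cdx1 at 63.2 and 158 CPM (2.50-fold, 2.37 to 2.63) and Klf5 at 269 and 568 CPM (2.11-fold, 2.05 to 2.16). The median gene of this class was itself 0.55 higher on the log2 scale. With that median set to 0, Cdx1 (0.77) and Klf5 (0.52) were no longer 2-fold, and with doublets kept they were at 0.36 and 0.25. Gata6 was at 31.7 and 60.2 CPM (1.90-fold) and Hnf4a at 309 and 228 CPM (1.36-fold lower, 1.32 to 1.39). The median depth of these cells was 2273 and 11122 UMIs, which moved with the library. With every cell thinned to 1000 UMIs the log2 ratio of Klf5 was 0.95, below the call, and Osr2, Cdx1 and Cdx2 kept theirs. Untreated cluster 20 (411 cells) had 7 absorptive markers but stayed unnamed and was not in this class. It had 482 CPM of Klf5 and 119 CPM of Cdx1, above clusters 0 and 6. How the ratios would change with cluster 20 in the class was not tested.

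In goblet-like cells, from cluster 8 in the untreated and clusters 1 and 13 in the NPs library, 2 of the 6 genes were called higher and 0 lower, against 13.8% of 13960 genes higher and 8.12% lower. Osr2 had 2 and 2266 UMIs (0.178 and 75.1 CPM, 422-fold, 117 to 3487) and Cdx2 was at 23.04 and 162 CPM (7.02-fold, 6.20 to 7.99). Cdx1 (161 and 141 CPM), Hnf4a (107 and 89.8 CPM), Gata6 (66.0 and 71.5 CPM) and Klf5 (508 and 541 CPM) all lay well within 2-fold. The higher calls of Cdx1 and Klf5 in absorptive cells were thus not seen in goblet cells. In absorptive cells, however, these calls were lost in 4 (Cdx1) and 7 (Klf5) of 11 processing alternatives. The difference between the classes was not tested. Absorptive markers summed to 1637 CPM in cluster 8 against 2645 and 13746 CPM in clusters 1 and 13, and their part in these ratios was not tested.

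Enteroendocrine-like cells, the hormone-making cells, fell into 1 cluster that both libraries shared (cluster 22, 263 untreated and 126 NPs cells). Of the 6 genes 2 were called higher and 0 lower, against 14.4% of 7527 genes higher and 4.98% lower. Osr2 had 0 UMIs in the untreated and 85 in the NPs cells (74.0 CPM, 59.1 to 91.5). With 3 counts in place of 0 its log2 ratio was 4.54, and the interval of its ratio reached down to 18.5. Cdx2 had 10 and 255 UMIs, 10.6 and 222 CPM, a ratio of 20.96 (11.2 to 44.2). Thinned to 1000 UMIs a cell, neither gene reached the 20 UMIs needed for a call. Cdx1 (86.9 and 118 CPM), Hnf4a (94.3 and 132 CPM), Gata6 (61.5 and 88.8 CPM) and Klf5 (267 and 470 CPM) were 1.36-fold to 1.76-fold higher, below the 2-fold call. Absorptive markers summed to 1967 CPM in the untreated and 10830 CPM in the NPs cells of this cluster, so RNA of absorptive cells moved with the library, and its part in these ratios was not tested.

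**Figure D2:**
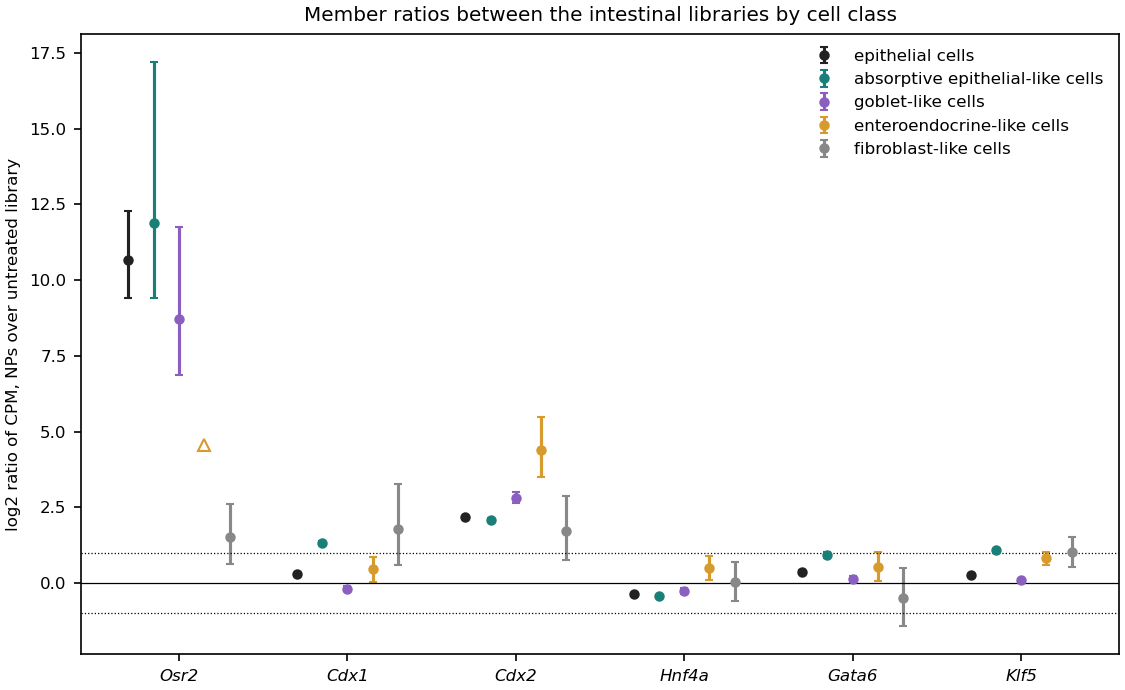
Log2 ratio of each gene, NPs over untreated library, in 5 cell classes (colours), with 95% counting intervals. Dotted lines mark 2-fold. The open triangle is the value with 3 counts in place of 0, without an interval. Osr2 and Cdx2 lie above the upper line in every class shown, while Hnf4a lies between the lines in all. Gata6 in fibroblast-like cells had only 13 untreated UMIs and was not called.

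Outside the epithelium the libraries carried epithelial RNA in every cell class, so each level was set beside the level this RNA would bring. That carried-over level is the gene's epithelial CPM times the share of the epithelial marker level found in the class. In immune cells, which are not known to make OSR2 or CDX2, the measured and the carried-over levels of Osr2 in the NPs library were 16.2 and 17.1 CPM, those of Cdx2 44.9 and 38.5 CPM and those of Klf5 93.8 and 98.9 CPM. Those of Hnf4a were 33.1 and 27.8 CPM and those of Gata6 15.1 and 12.0 CPM, and for these 5 genes the carried-over level lay inside the counting interval. Cdx1 measured 35.3 CPM (28.6 to 43.1) against 27.6 carried over, outside its interval. In the untreated library Klf5 measured 13.8 CPM (12.3 to 15.4) against 18.3, Cdx1 6.05 CPM (5.07 to 7.16) against 5.06, and Osr2, with 5 UMIs, 0.224 CPM (0.0727 to 0.523) against 0.00239. The carried-over level is thus an approximate guide, and measured levels close to it are not read as either presence or absence of a gene.

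Fibroblast-like cells, which make the collagen of the gut wall, formed clusters 25 and 19. Cluster 25 (24 untreated and 152 NPs cells) held 20.0% and 9.84% of the epithelial marker level, and cluster 19 (95 and 318 cells) held 74.3% and 82.6%. In cluster 25 Osr2 had 7 UMIs in 7 of the 24 untreated cells (32.1 CPM, 12.9 to 66.2) and 35 UMIs in 25 of the 152 NPs cells (43.1 CPM, 30.0 to 60.0). The carried-over levels were 0.0125 and 9.88 CPM, below both intervals, and the intervals of the libraries overlapped. Osr2 UMIs were thus found in cluster 25 in both libraries, also where the epithelium had almost none. Gata6 was above its carried-over level too, with 9 UMIs in the untreated (41.3 CPM, 18.9 to 78.5, against 10.9) and 15 in the NPs cells of cluster 25 (18.5 CPM, 10.3 to 30.5, against 6.94).

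The other 4 genes showed no such excess in cluster 25 of the NPs library. Cdx1 measured 12.3 CPM against 15.96 carried over, Cdx2 27.1 against 22.3, Hnf4a 20.9 against 16.1 and Klf5 43.1 against 57.3, each carried-over level inside the counting interval. In the untreated cells of this cluster Cdx2 had 6 UMIs (27.5 CPM against 10.0), all of them in 1 cell. The related gene Osr1, an odd-skipped factor of gut mesenchyme, had 29 and 69 UMIs in cluster 25 (133 and 85.0 CPM) and 2 and 3 UMIs in the whole epithelium, so that only Osr2 of the pair was abundant in NPs epithelium.

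Over both fibroblast-like clusters together (119 and 470 cells), 4 of the 6 genes were called higher in the NPs library and 0 lower, against 22.6% of 7407 genes higher and 3.09% lower. Osr2 was at 28.4 and 82.4 CPM (2.90-fold, 1.53 to 6.16), Cdx1 at 17.1 and 58.6 CPM (3.43-fold, 1.53 to 9.57), Cdx2 at 25.6 and 84.0 CPM (3.28-fold, 1.68 to 7.32) and Klf5 at 114 and 229 CPM (2.02-fold, 1.46 to 2.86). Hnf4a was at 74.0 and 75.7 CPM, and Gata6, with 13 and 47 UMIs, did not reach 20 UMIs in the untreated library, where its CPM was higher. In the NPs library most of these UMIs came from cluster 19, for example 114 of the 149 Osr2 UMIs and 130 of the 152 Cdx2 UMIs. In the untreated library cluster 25 gave the larger part, with 7 of the 10 Osr2, 4 of the 6 Cdx1, 6 of the 9 Cdx2 and 23 of the 40 Klf5 UMIs, so the pooled ratios set different clusters against each other. The epithelial share of cluster 19 was high in both libraries. In the NPs library the carried-over levels of the pooled class were 80.9 CPM for Cdx1, 113 for Cdx2 and 291 for Klf5, above the measured levels. For Osr2 it was 50.1 CPM, below the measured level, and in cluster 19 Osr2 measured 114 CPM (94.3 to 137) against 82.9. In the untreated library they were 0.0254 CPM for Osr2, 53.9 for Cdx1, 20.4 for Cdx2 and 195 for Klf5. The part of epithelial RNA in these 4 ratios was not tested. With the limit lowered to 10% mitochondrial UMIs none of the 4 calls held, as the log2 ratios went to 0.52 for Osr2, 0.49 for Cdx1, 0.85 for Cdx2 and -0.33 for Klf5 on 82 and 203 cells, and Hnf4a at -1.35 became a lower call.

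Endothelial-like cells (cluster 26, 141 cells) and an unnamed stromal cluster with glial markers (cluster 27, 54 cells) were found in the NPs library, with 0 untreated cells. In cluster 26 Gata6 measured 53.4 CPM (34.2 to 79.5) against 28.2 carried over, on 24 UMIs in 12 cells, and Osr2 measured 37.8 against 40.1. In cluster 27 Osr2 measured 84.5 CPM (50.1 to 133.5) against 40.01 and Cdx2 145.5 CPM (98.9 to 206.5) against 90.4, on 18 and 31 UMIs in 7 and 12 cells. Gata6 was thus above the carried-over level in clusters 25 and 26. In cluster 19 of the NPs library it was below it, at 32.1 CPM (21.9 to 45.3) against 58.2, and over both fibroblast-like clusters it measured 25.98 CPM against 35.2. The counts of cluster 27 rest on few cells.

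**Figure D3:**
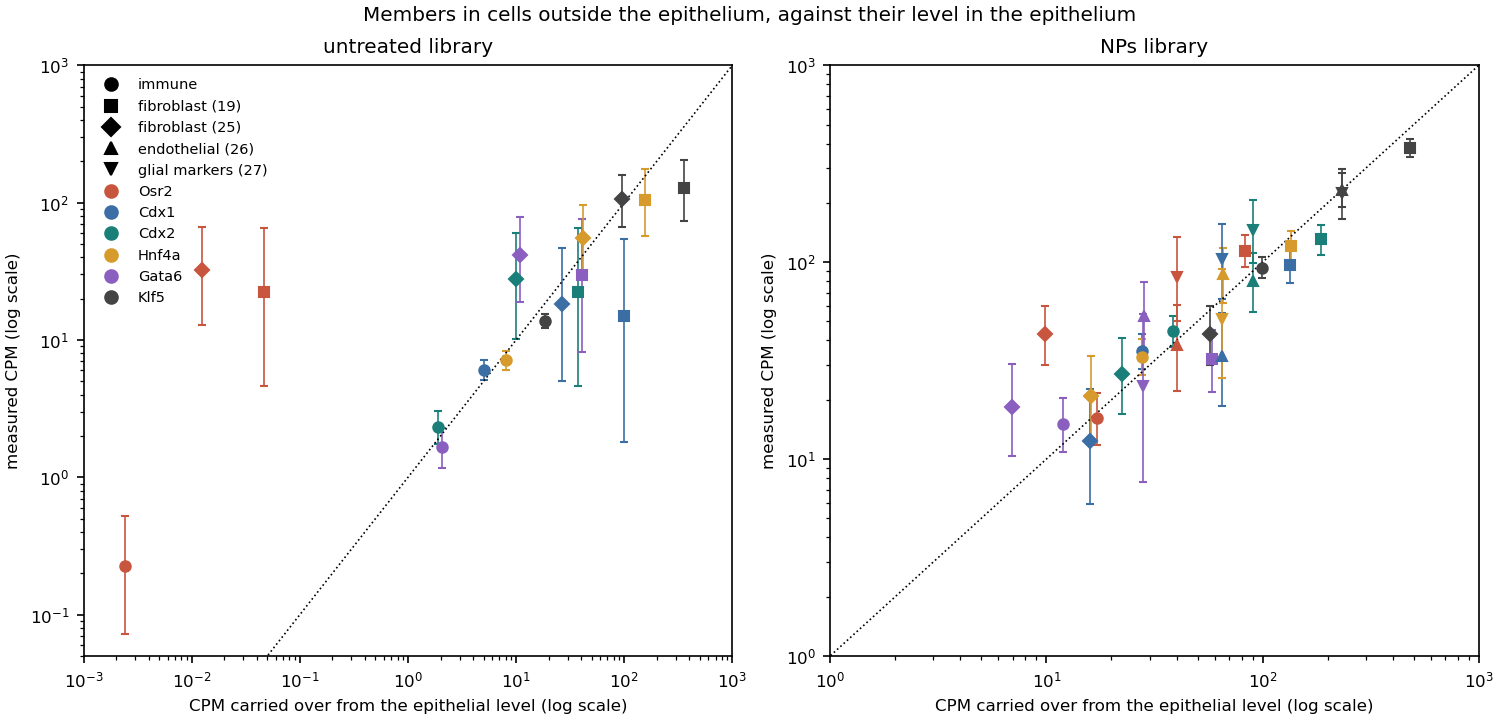
Measured level of each gene (colour) in immune and stromal cells (symbols) against the level carried over with epithelial RNA, both in CPM on log axes, for each library. Bars are 95% counting intervals and the dotted line marks equal levels. Untreated Osr2 lies far above the line in both fibroblast clusters (32.1 CPM in cluster 25 against 0.0125, and cluster 19 on 3 UMIs). It also does so in immune cells (0.224 CPM against 0.00239, on 5 UMIs). The immune points of the NPs library lie close to the line.

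Single cells held the genes in varied combinations. After thinning to 1000 UMIs, 51.6% of untreated and 69.6% of NPs epithelial cells had a UMI of at least 1 of the 6 genes, and 12.2% and 26.9% had UMIs of at least 2 of them. Among the 789 NPs cells with an Osr2 UMI, 17.9% also had Cdx2 (15.3 to 20.7%), against 18.7% of the 7745 cells without. For Klf5 the shares were 41.2% with and 40.2% without Osr2, and for Cdx1 they were 12.3% and 14.4%. Finding Osr2 in a cell therefore hardly changed the share of cells with the other genes, at a depth where most transcripts of a cell were not sampled.

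Likeness between genes was described as Pearson's r of log2(CPM + 10) over 21 profiles of a class in a library, among 13169 genes, with no p because the profiles share libraries, epithelial RNA and depth. Osr2 was most like Pdk4 (0.95), Tbx3 (0.95), Hoxb5 (0.94) and Isx (0.93). Cdx2 was most like Pparg (0.96), Fabp2 (0.96), Acads (0.95), Arl14 (0.95) and Mettl7b (0.95). Among the members, Osr2 and Cdx2 had r = 0.88, whereas Osr2 and Cdx1 had r = 0.38. Osr2 and Cdx2, unlike Cdx1, were called higher in the whole NPs epithelium, and the profiles span both libraries. These r values thus restate that library difference in part. Cdx1 was most like Hook1 (0.97), Klf5 (0.96), Pi4k2b (0.96) and Esrp1 (0.96). Gata6 came closest to Ptprk (0.96), Gucy2c (0.95), Slc2a13, Mindy1 and Atp8b1, Klf5 to Atp8b1 (0.98), Pigr (0.97), Map7, Noxo1 and Fbp2, and Hnf4a to the epithelial genes Perp (0.98), Krt8 (0.98), Tst, Cldn3 and Tmem54 (0.98 each).

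Other transcription factors of the gut epithelium were called about as often as genes at large. Of 28 listed, 24 had at least 20 UMIs in the higher library, and 5 were called higher and 2 lower in the NPs epithelium, against 19.4% and 8.76% of all genes, with a median log2 ratio of 0.43 against 0.33 over all genes. Isx, a homeobox factor of vitamin A uptake in the small intestine, had 78 and 8537 UMIs (0.975 and 82.6 CPM, 84.7-fold), and Ppara, a receptor that drives fatty acid oxidation, was at 4.08 and 22.9 CPM (5.61-fold). Foxa3, a forkhead factor, was 3.98-fold higher and the bile acid receptor gene Nr1h4 2.28-fold higher, and Gata5, which also stands in the next list, had 1 and 62 UMIs. Prdm1, which is known from the immature gut, was 2.97-fold lower (8.44 and 2.83 CPM) and Pdx1, known from the duodenum, 2.61-fold lower at 1.41 and 0.542 CPM. Among factors of gut mesenchyme, 4 of 22 were measured in the epithelium, 3 called higher and 1 lower, against 19.4% and 8.76% of all genes. The T-box gene Tbx3 had 10 and 3468 UMIs (268-fold, 146 to 560), and Gata5 was again among the higher genes. Both reached 20 UMIs only in the NPs library, so nothing is read from that count. Isl1 was 2.39-fold lower.

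Genes known as targets of CDX or HNF4 factors had members called higher and members called lower. Of 21 listed, 17 were measured, of which 6 were called higher and 2 lower, against 19.4% and 8.76% of all genes, with a median log2 ratio of 0.19 against 0.33 over all genes. The lipid carrier gene Apob was 7.86-fold higher at 0.750 and 5.89 CPM, Fabp2, a fatty acid binding protein gene, 4.15-fold (240 and 999 CPM), the brush border protease gene Mep1a 3.78-fold and the guanylin receptor gene Gucy2c 2.20-fold. The chloride exchanger gene Slc26a3 was 3.17-fold lower (570 and 180 CPM) and the keratin gene Krt20 2.83-fold lower (1077 and 380 CPM).

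Among listed markers of gut position, the small intestinal and the colonic list each had genes called higher and genes called lower. Of 18 small intestinal genes 11 were measured, 7 called higher and 3 lower (median log2 ratio 2.05), against 19.4% and 8.76% of all genes. The defensin gene Defa24 led with 0 and 869 UMIs (224-fold higher with 3 counts in place of 0). Next came the lectin gene Itln1 (6.42 and 1017 CPM) and the protease gene Mmp7 (1.09 and 61.6 CPM). Alpi, an alkaline phosphatase gene, was 10.8-fold higher, whereas Rbp2, a retinol binding protein gene, was 10.3-fold lower and the bile acid binding protein gene Fabp6 4.07-fold lower, Pdx1 being the remaining lower gene. Of 10 colonic genes 8 were measured, 2 called higher and 5 lower (median log2 ratio -1.79), against the same 19.4% and 8.76%. Hoxb13 was 20.9-fold lower, the water channel gene Aqp8 20.5-fold lower (713 and 34.8 CPM), Car4 13.03-fold and Aqp4 3.78-fold lower, Slc26a3 being the remaining lower gene, while Car1, a carbonic anhydrase gene, was 9.06-fold higher (986 and 8936 CPM) and Scnn1b 3.52-fold higher. The part of gut position in the Osr2 and Cdx2 ratios was not tested.

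In the brain libraries Osr2, Cdx1, Cdx2 and Hnf4a had 0 to 3 UMIs. Among all barcodes of the untreated and the NPs brain library, Osr2 had 1 and 3 UMIs, Cdx1 0 and 1, Gata6 15 and 5 (0.212 and 0.0783 CPM) and Klf5 106 and 58 (1.502 and 0.908 CPM). Cdx2 and Hnf4a had 0 UMIs in both, with intervals reaching up to 0.0523 and 0.0577 CPM. The intervals of Klf5 lay above these levels in both libraries. That of Gata6 did so in the untreated brain library (0.119 to 0.350 CPM) but not in the NPs one (0.0254 to 0.183 CPM).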

How the data were processed

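The deposited matrices hold raw UMI counts per gene and barcode, made with Cell Ranger 5.0.1 on GRCm38 per the submitters' processing notes. All 55450 gene identifiers matched the annotation. A barcode needed 500 UMIs, 200 genes and a mitochondrial share of no more than 20%. Scrublet's own threshold marked 0.0530% and 0% of the intestinal barcodes, which means that it had not worked, so a fixed score of 0.25 was used and removed 0.654% and 0.855%. The intestinal libraries were clustered together (scanpy 1.11.5, leidenalg 0.10.2, 2000 variable genes, 30 components, 15 neighbours, resolution 1) with the 6 genes kept out of the variable genes. Clusters were named from marker lists with at least 3 markers, each 2-fold raised and in at least 20% of cells. A cluster stayed unnamed where markers of another class led or tied among its 10 leading genes. The same held for shallow clusters with no marker among those genes. Cluster 20, with 7 absorptive markers, and cluster 11, with 7 proliferation markers, thus stayed unnamed. Clusters with mixed epithelial and immune RNA (3272 and 112 cells) were counted as neither epithelial, stromal nor immune cells. Those named B cell, plasma cell or mast cell entered the classes of that name, and so the profiles used for likeness. They made up 2263 of the 3889 untreated B cell-like cells. UMIs of a class were summed per library and given as CPM with exact Poisson intervals. Ratios have conditional binomial intervals and shares exact binomial ones. Classes with at least 50 cells in both libraries were compared. Since each group is 1 library, no test was run.

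All 6 genes were named in every class. From each list up to 6 genes with the largest absolute log2 ratio among those with at least 100 UMIs were named, and Lct, Apoa4, Gata4, Gata5, Fabp6, Osr1 and Hnf4aos were added with their values known. Likeness used the 5 highest correlations, leaving out mitochondrial, ribosomal, Gm-numbered and Rik genes. A few genes that these rules pick are not reported here. The members and lists were chosen with earlier results of these data known. The calculations were tested on simulated data. Alternatives are given in the closing section.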

Additional observations from a re-analysis of the deposited data

How the results depend on the processing

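Each ratio was recomputed under up to 13 alternatives: another mitochondrial limit, depth minimum, clustering or scaling, doublets kept, cells thinned, and, chosen after seeing the data, without the barcodes found in both intestinal libraries. In the whole epithelium all 6 genes kept their side of the 2-fold call in 78 of 78 comparisons, with log2 ratios of 9.43 to 10.99 for Osr2, 1.85 to 2.29 for Cdx2, -0.04 to 0.62 for Cdx1, -0.69 to -0.26 for Hnf4a, 0.04 to 0.89 for Gata6 and -0.05 to 0.60 for Klf5. The genes at least 2-fold higher went from 3397 to 2088 with a minimum of 100 UMIs and to 2257 with the median gene moved to 0, and those lower from 1530 to 998 with a minimum of 100 UMIs. In goblet-like cells 66 of 66 comparisons kept their call. In absorptive cells 11 calls were lost, 7 of them for Klf5 and 4 for Cdx1, and 1 was gained. Cdx1 came as low as 0.36 and Klf5 as low as 0.25 with doublets kept, where 6661 untreated cells were named absorptive. In enteroendocrine-like cells the Osr2 call and the Cdx2 call (2.51) were lost when thinned, with too few UMIs left for the 20-UMI rule, and 3 higher calls were gained: Hnf4a at 1.11 with each library clustered separately (-0.44 to 1.11 over the alternatives), Gata6 at 1.07 with the mean over cells (-0.26 to 1.88) and Klf5 at 1.01 at resolution 2. In fibroblast-like cells 8 calls were lost, Klf5 turned to -0.33 and Hnf4a gained a lower call at -1.35, both with a limit of 10% mitochondrial UMIs, and the causes were not tested. None of the 6 genes was among the 2000 variable genes, so allowing them there gave the same clusters, and those comparisons say nothing about stability. No paired analysis was possible because each group holds 1 library. Depth limits Osr2 in the untreated library, where its ratios rest on 0 to 10 UMIs a class.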
